A study of Mus musculus with 18 samples.

Results

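The comparison described here was of embryoid bodies in which Msgn1 had been induced for 12 h with embryoid bodies of the same age in which it had not, the earliest of the 3 times sampled. It took 6 of the 18 arrays of the study, the 3 titled as 12 h with doxycycline and the 3 titled as 12 h without it, and the quantity compared was the difference of the group means of log2(signal + 32). Both groups came from A2loxFMsgn1 embryonic stem cells of strain 129P2, a single line that carries a Flag-tagged Msgn1 which doxycycline switches on from its cassette, so the uninduced controls carried the same cassette. The stem cells had been grown with LIF on mitomycin-treated mouse embryonic fibroblasts and then left to aggregate for 2 days. The induced embryoid bodies next received 1 µg/ml doxycycline for 12 h, and the uninduced ones were cultured for the same 12 h without it. The remaining groups, also of 3 arrays each, were induced and uninduced embryoid bodies of 24 h and of 48 h. The labels call the arrays of a group biological replicates but do not say whether they came from separate cultures, so p-values measure the spread between these samples. No doxycycline-treated cells without the Msgn1 cassette were analysed here, and a response to Msgn1 and a response to doxycycline cannot be told apart.

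Msgn1 belongs to the basic helix-loop-helix transcription factors and is expressed in presomitic mesoderm, the tissue beside the tail end of the embryo from which the somites are cut. Cells reach that tissue by leaving the epiblast through the primitive streak, which involves a loss of epithelial organisation and movement guided by Wnt and planar polarity signals. Within it the Notch ligands Dll1 and Dll3 and the oscillating Notch target genes act together with Wnt and FGF signals in the segmentation clock. Factors of the Msgn1 class bind E-boxes, short sites of the form CANNTG, as pairs with the widely expressed E proteins. Per the labels, genes of this lineage start to be expressed in this culture after the day on which doxycycline was given, so the induction was premature.

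Signs of array and RNA quality were read first. Correlations between replicates lay between 0.992 and 0.993, array medians between 19.3 and 21.1 in signal, and no pair of arrays held identical values. The ratio of the 3' to the 5' control probe set of Actb, a measure of RNA integrity, was 1.84 to 2.16 in induced and 1.72 to 1.90 in uninduced arrays (2-sided exact permutation p = 0.2, n = 3 each, where 0.1 is the smallest p possible). The mean Actb ratio was 0.18 higher in induced arrays, and its part in the results was not tested. The ratio of Gapdh was 0.862 to 0.912 in induced and 0.877 to 0.916 in uninduced arrays (exact permutation p = 1). Values below are signals in array units, means are given with the SD of 3 arrays, and changes are induced minus uninduced on the scale log2(signal + 32) with their SE, or the corresponding fold, which understates the change of genes of low signal. Signals of different genes cannot be set against each other, since each probe set has its own response. Precision was limited by having 3 arrays a group: the 95% interval of a gene's change reached, at the median, 0.24 to either side, a 1.18-fold change.

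The promoter windows of 4 genes that rose are shown first, because 3 of them (Dll3, Dll1 and Hes6) belong to the Notch and helix-loop-helix genes on which the results turn, and the other (Prickle1) had the largest rise. They are RefSeq windows of mouse build GRCm38.p6, each of 300 bases from 250 before to 50 after the outermost annotated start, read 5′ to 3′ on the gene's strand, with every E-box CANNTG in capitals. The windows are chr7:28301736-28302035 for Dll3, chr17:15376883-15377182 for Dll1, chr1:91413989-91414288 for Hes6 and chr15:93595853-93596152 for Prickle1, all on the minus strand; Dll1, Hes6 and Prickle1 each have 2 listed starts.
Dll3: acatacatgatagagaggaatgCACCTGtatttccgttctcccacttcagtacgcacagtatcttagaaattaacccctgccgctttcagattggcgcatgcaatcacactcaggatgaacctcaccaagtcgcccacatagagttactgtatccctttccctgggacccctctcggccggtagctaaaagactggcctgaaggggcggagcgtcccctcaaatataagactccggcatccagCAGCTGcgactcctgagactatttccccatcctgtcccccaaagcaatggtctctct
Dll1: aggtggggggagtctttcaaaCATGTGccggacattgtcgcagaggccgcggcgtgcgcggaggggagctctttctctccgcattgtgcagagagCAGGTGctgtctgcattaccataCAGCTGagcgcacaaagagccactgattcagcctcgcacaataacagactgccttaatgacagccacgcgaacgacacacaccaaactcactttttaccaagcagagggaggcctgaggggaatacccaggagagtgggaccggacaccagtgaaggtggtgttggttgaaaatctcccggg
Hes6: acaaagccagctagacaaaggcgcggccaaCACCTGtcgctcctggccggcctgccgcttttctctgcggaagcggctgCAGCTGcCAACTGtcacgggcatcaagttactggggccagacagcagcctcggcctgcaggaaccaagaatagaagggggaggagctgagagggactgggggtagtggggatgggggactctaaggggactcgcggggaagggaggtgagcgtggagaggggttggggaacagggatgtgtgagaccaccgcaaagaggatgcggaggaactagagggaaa
Prickle1: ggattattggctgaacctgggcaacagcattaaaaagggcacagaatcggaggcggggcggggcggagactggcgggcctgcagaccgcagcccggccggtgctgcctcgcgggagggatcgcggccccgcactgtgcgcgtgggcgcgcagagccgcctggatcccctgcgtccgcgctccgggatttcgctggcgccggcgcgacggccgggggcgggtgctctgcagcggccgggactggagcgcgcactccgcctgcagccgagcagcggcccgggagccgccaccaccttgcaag

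The Dll3 window held 2 E-boxes, a CACCTG whose first base lies 228 bases upstream of the start and a CAGCTG 7 bases upstream. The Dll1 window held 3, of which CAGCTG lies 132 bases upstream, and the Hes6 window held 3, of which CAGCTG lies 171 bases upstream. The Prickle1 window held none. Other called Notch and helix-loop-helix genes with a window, not printed here, held fewer E-boxes. The windows of Notch1 and Id4 held 0. Those of Notch4, Neurod1 and Msgn1 held 1 each, and not of the form shared by the Dll3, Dll1 and Hes6 windows. The printed windows therefore do not stand for all such genes. CANNTG reads the same on both strands, and it was found in 64.4% of the windows of 11450 tested genes that have one, in 68.75% of 96 of the 128 genes that rose and in 66.7% of 21 of the 26 genes that fell. The form CAGCTG, also the same on both strands, was in 15.3% of all windows, in 22.9% of those of genes that rose and in 19.0% of those of genes that fell. CACCTG, searched on both strands, was in 18.9%, 17.7% and 28.6% of the windows in the same order. The shares are a description without a test, and a match of letters does not show that a factor binds.

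At 12 h 154 of 14273 genes tested passed limma at an adjusted p under 0.05, which is 1.08% of them: 128 were higher (0.897%) and 26 lower (0.182%) in induced embryoid bodies. Among the rises were the Notch ligand genes Dll1 and Dll3, the receptor genes Notch1 and Notch4, Wnt5a, the planar polarity gene Prickle1, and Neurod1, Insm1 and Hes6. Rises were also larger than falls. Of the genes that rose 63 did so at least 1.5-fold and 20 at least 2-fold, whereas 6 fell at least 1.5-fold and 0 at least 2-fold. For every gene called, the 3 induced arrays all lay beyond the 3 uninduced ones; over all genes tested the same was so of 9.53% above and 9.13% below, called or not. Before adjustment 916 genes were higher and 690 lower at a p under 0.05, which is 11.3% of all genes tested and the background for the counts of unadjusted p given for lists below, and the median change over all genes was 0.00. Of the 128 rises, 20 were of genes whose uninduced mean was under 32, where the scale compresses changes most. Of 4616 probe sets without a single gene name, 5 passed, 3 of them higher.

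**Figure D1:**
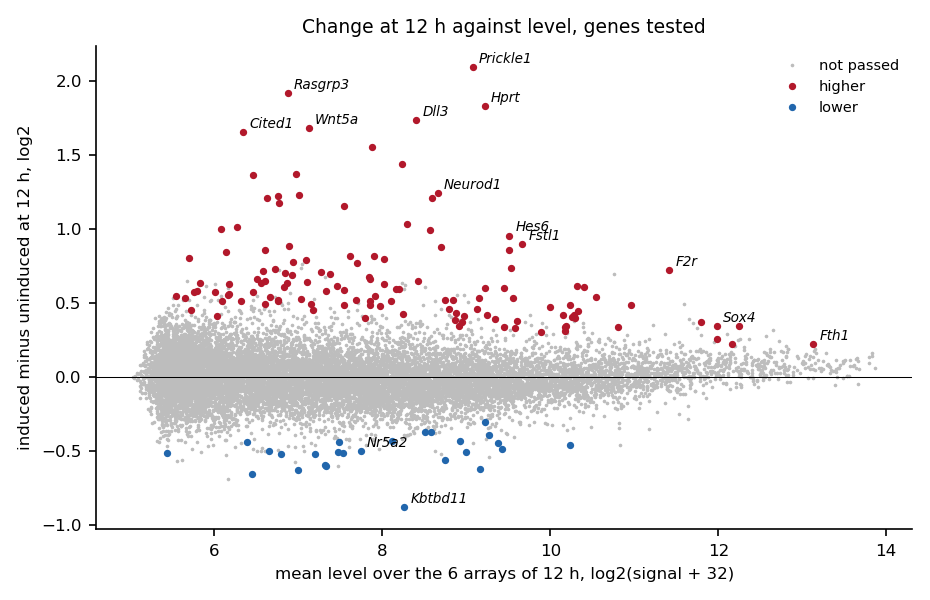
Change at 12 h against mean level for the 14273 genes tested: each point is a gene, the x axis is the mean of the 6 arrays as log2(signal + 32) and the y axis the log2 difference of induced minus uninduced. Red points are the 128 genes called higher, blue points the 26 called lower and grey points the rest; the rises extend above 2 on the log2 scale (Prickle1) while no fall reaches -1.

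Msgn1, the induced gene, had signals of 70.4, 64.7 and 76.8 in induced arrays, against 16.8, 25.2 and 15.0 in uninduced arrays. Every induced array stood well above every uninduced one, and the change was 1.01 ± 0.12 (limma adjusted p = 1.15e-05). The gene has 1 probe set, and whether it reads the transgene, the endogenous gene or both is not given in the sources used here. Hprt, the purine salvage enzyme, had 975, 822 and 901 in induced arrays, against 228, 203 and 257 in uninduced arrays. In A2lox lines the inducible cassette is placed beside Hprt on the X chromosome, which is background and not a finding of these arrays. The change of Hprt was 1.84 ± 0.12 (limma adjusted p = 4.68e-09), the third largest of all. Of its 5 nearest RefSeq neighbours on each side 8 were tested and none passed: 1700080O16Rik stood at -0.08, Gpc4 at 0.03, Gpc3 at -0.04, Ccdc160 at -0.10, Phf6 at -0.07, Mospd1 at 0.04, Plac1 at 0.30 (adjusted p = 0.514) and Fam122b at -0.30 (adjusted p = 0.0926, unadjusted p = 0.0016). Among 17 tested genes of purine salvage and synthesis, Hprt was the only one called, the median change was -0.00, and 2 had an unadjusted p under 0.05.

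Both Notch ligand genes that mark presomitic mesoderm rose. Dll3, a divergent ligand that works inside the cell, had signals of 486.8, 516.5 and 465.5 in induced arrays, against 115, 129 and 129 in uninduced arrays. Dll1, the activating ligand, had 326, 292 and 337 in induced arrays, against 77.7, 92.2 and 91.6 in uninduced arrays. The groups were far apart for both genes, with changes of 1.74 ± 0.08 for Dll3 (3.34-fold, limma adjusted p = 4.42e-12) and 1.56 ± 0.13 for Dll1 (2.94-fold, adjusted p = 7.32e-08). The other 4 ligand genes tested did not pass, at 0.42 for Jag1, 0.21 for Dlk1, -0.07 for Dll4 and -0.19 for Jag2.

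The receptor gene Notch1 had 249, 207 and 236 in induced arrays, against 131, 115 and 119 in uninduced arrays. That is a change of 0.77 ± 0.14 (limma adjusted p = 0.00437), and both of its probe sets passed. Notch4, a receptor gene best known from endothelium, had 79.2, 85.9 and 78.9 in induced arrays, against 42.4, 48.0 and 55.5 in uninduced arrays, a change of 0.49 ± 0.10 (adjusted p = 0.0124). Its call was lost without uninduced replicate 1, uninduced replicate 2 or induced replicate 2 (adjusted p = 0.0898, 0.0516 and 0.0823), and 1 of its 2 probe sets was called, the pair spanning 0.06 to 0.49 and averaging to 0.28 with no call. Notch2 and Notch3 stood at 0.18 and 0.20 and did not pass.

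The genes that report Notch signalling were measured from the same arrays. Of 12 tested targets and feedback genes 0 passed limma and 1 had an unadjusted p under 0.05, with a median change of 0.10 and values from -0.23 (Hes5) to 0.35 (Lfng). Lfng, the fringe glycosyltransferase that oscillates in presomitic mesoderm, had 45.5, 4.58 and 34.8 in induced arrays, against 24.6, 15.2 and 2.02 in uninduced arrays. Its groups overlapped, and its 95% interval ran from -0.14 to 0.84. Dtx4 stood at 0.26. Of 11 tested genes of Notch processing and its nuclear complex 0 passed and 5 had an unadjusted p under 0.05. The changes went both ways, with 6 of the 11 above 0 and a median of 0.04. Numbl stood at 0.37 and Mib1 at 0.26 (limma adjusted p = 0.287 and 0.312), Adam17 at -0.21 and Rbpj at -0.16 (adjusted p = 0.312 and 0.423).

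**Figure D2:**
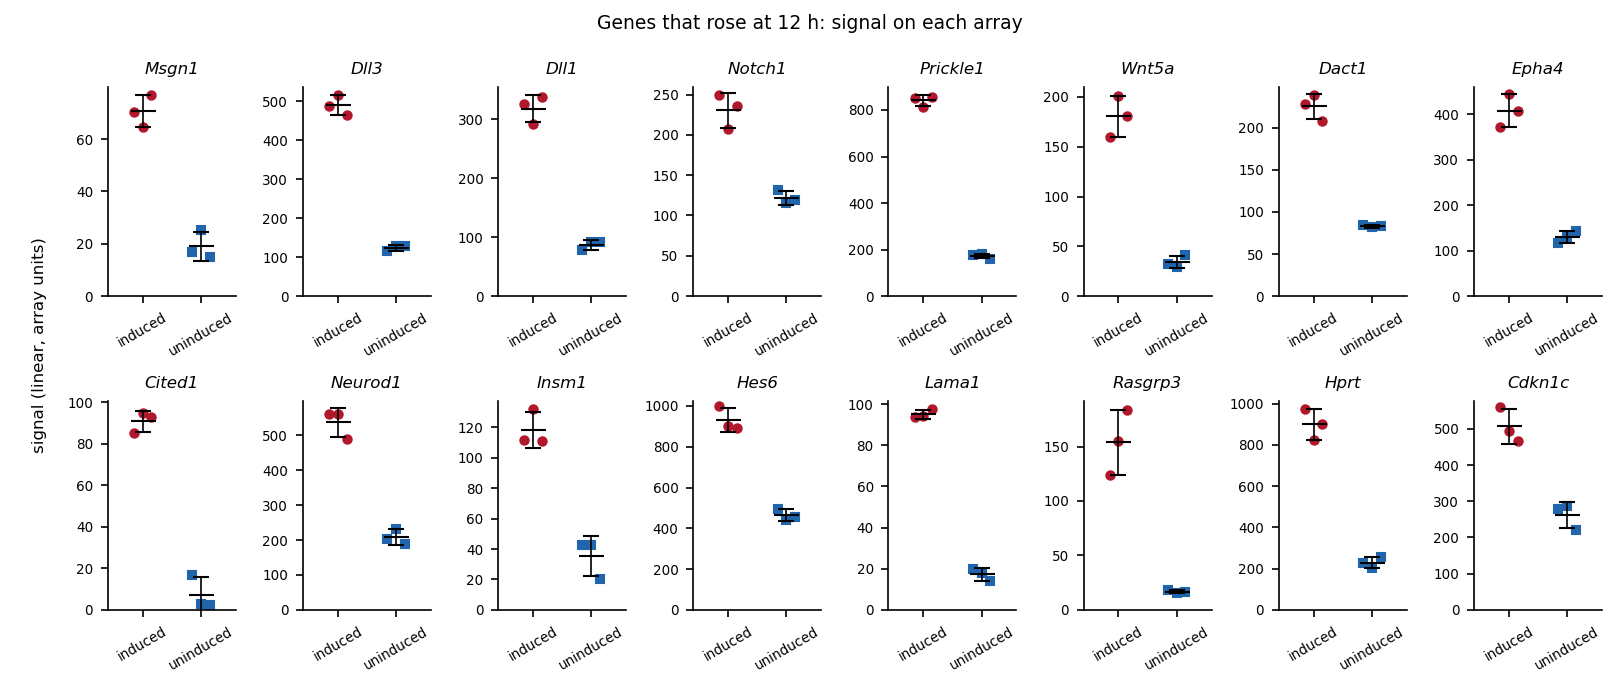
Signal on each array for 16 genes that rose at 12 h: red circles are the 3 induced arrays, blue squares the 3 uninduced arrays, and bars give the mean and SD; each panel has its own linear axis from 0. In every panel the lowest induced array lies above the highest uninduced one.

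Of 10 tested transcription factor genes of presomitic and segmenting mesoderm, Cited1 and Msgn1 rose and 8 did not pass, with a median change of 0.10. Cited1, a transcriptional cofactor expressed in nascent and presomitic mesoderm, had 85.1, 94.6 and 92.9 in induced arrays, against 17.0, 2.76 and 2.41 in uninduced arrays. The uninduced arrays lay in the lowest part of the signal range, and the change was 1.66 ± 0.17 (limma adjusted p = 1.67e-06). Tbx6, the T-box factor of presomitic mesoderm, stood at 0.35 (adjusted p = 0.186), the clock gene Hes7 at 0.15, Mesp1 at 0.02 and Mesp2, which sets somite boundaries, at -0.29. Summed over the 7 tested presomitic markers the signal was 930.5 to 984 in induced and 287 to 311 in uninduced arrays. The 3 called (Dll3, Dll1 and Msgn1), described above, made up most of the gap in that sum, so it adds little to their calls. Among 12 tested primitive streak genes 0 passed and 3 had an unadjusted p under 0.05. Of the 12, 6 had a change above 0, and the median was -0.02. Eomes, a T-box factor of the streak, had 407 ± 35.8 in induced and 254 ± 13.4 in uninduced embryoid bodies (limma adjusted p = 0.0826). Lhx1 stood at 0.51 (adjusted p = 0.184) and Nodal, the lowest, at -0.38 (adjusted p = 0.135), its induced arrays all below the uninduced ones.

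The largest rise of all was that of Prickle1, which encodes a LIM domain protein of the planar cell polarity core. Its signals were 851, 815 and 857 in induced arrays, against 177, 179 and 162 in uninduced arrays, and the 2 groups were each tightly clustered. The change was 2.09 ± 0.09 (4.27-fold, limma adjusted p = 3.59e-12), though 1 of its 3 kept probe sets passed and they spanned 0.20 to 2.09. Wnt5a, a Wnt ligand that acts through planar polarity and movement, had 160, 201 and 181 in induced arrays, against 32.7, 28.8 and 40.9 in uninduced arrays. That was a change of 1.68 ± 0.12 (adjusted p = 5.27e-09), and all 3 probe sets passed, from 0.65 to 1.68. The other 20 tested genes of planar polarity and Wnt5a signalling did not pass, among them Vangl2 at -0.18, Ror2 at 0.24, Ptk7 at -0.06 and Prickle2 at 0.22, and the list's median was 0.02.

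Of 23 tested targets and modulators of canonical Wnt signalling 1 rose, with a median of 0.05. It was Dact1, a Dishevelled-binding modulator, with 229, 239 and 209 in induced arrays, against 85.0, 81.6 and 83.0 in uninduced arrays (1.16 ± 0.10, limma adjusted p = 9.05e-08). Other Wnt components among the called genes, grouped by role after their values were seen, were the Dishevelled-binding Ankrd6 at 0.65 ± 0.09, the kinase gene Csnk1a1 at 0.26 ± 0.06 and, lower in induced embryoid bodies, the scaffold gene Axin1 at -0.44 ± 0.09. Axin1 lost its call without induced replicate 1, induced replicate 2 or uninduced replicate 2 (adjusted p = 0.0665, 0.0893 and 0.0860), and Csnk1a1 lost it whichever array was left out, with adjusted p between 0.0568 and 0.176. The other kept probe sets of Ankrd6 stood at -0.06 and 0.43, that of Axin1 at -0.06 and those of Csnk1a1 between -0.09 and 0.07, none called.

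Epha4 and 4 other called genes are known from cell guidance, a group formed after their values were seen. Epha4, an ephrin receptor gene whose product takes part in somite boundary formation, had 372.5, 444 and 408 in induced arrays, against 116, 131 and 143.5 in uninduced arrays. It was the only one called of 17 tested Eph receptor and ephrin genes, at 1.44 ± 0.15 (limma adjusted p = 4.18e-06), and 3 of its 5 probe sets passed. Sema3f, a secreted guidance cue, had 115, 81.5 and 122 in induced arrays, against 32.7, 38.0 and 13.5 in uninduced arrays. Its change of 1.21 ± 0.25 (adjusted p = 0.0118) rested on a probe set whose type marks possible cross-matches, and the call was lost without uninduced replicate 3, induced replicate 1 or induced replicate 3 (adjusted p = 0.0714, 0.0653 and 0.0700). Sema6d (0.72), the receptor gene Robo1 (0.53) and Dpysl2, which relays semaphorin signals to the cytoskeleton (0.61), were also called. The calls of Robo1 and Dpysl2 were kept whichever single array was left out, and that of Sema6d only without induced replicate 2 or uninduced replicate 3. Each of these 3 calls rested on 1 probe set. The other kept probe sets, all of low signal, were not called: they stood at -0.22 and -0.20 for Sema6d, 0.11 and 0.11 for Robo1 and 0.01 for Dpysl2.

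Neurogenic helix-loop-helix genes and their partners were among the largest rises. Neurod1, a proneural transcription factor gene, had 562, 561 and 488 in induced arrays, against 204, 233 and 189 in uninduced arrays. Insm1, a zinc finger gene of neuroendocrine and neural progenitors, had 112, 132 and 111 in induced arrays, against 42.8, 42.7 and 20.0 in uninduced arrays. Hes6, a helix-loop-helix gene expressed downstream of proneural factors and in presomitic mesoderm, had 997.5, 903.5 and 892 in induced arrays, against 495, 438.5 and 457 in uninduced arrays. All 3 genes had groups well apart, with changes of 1.24 ± 0.13, 1.18 ± 0.14 and 0.96 ± 0.09 (limma adjusted p = 2.89e-06, 2.35e-05 and 3.81e-07), and both probe sets of each passed. The other 15 of 18 tested genes of proneural and neuronal differentiation did not pass, and the list's median was 0.09.

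A further set of called genes is known from neurons, grouped here after their values were seen: the fatty acid binding protein gene Fabp7 of radial glia, the synaptic vesicle and trafficking genes Snap91, Pacsin1 and Syt11, the Cdk5 activator gene Cdk5r2, the receptor subunit gene Gabra4 and Sox4. Fabp7 had 135, 158 and 155 in induced arrays, against 36.8, 42.7 and 34.8 in uninduced arrays (1.37 ± 0.14, limma adjusted p = 2.01e-06). Snap91 had 117, 123 and 127 in induced arrays, against 62.0, 62.6 and 50.1 in uninduced arrays (0.78 ± 0.09, adjusted p = 1.78e-05). The changes of the others ran from 0.35 for Sox4 to 0.64 for Cdk5r2, and of the 10 genes including Neurod1, Insm1 and Hes6 6 kept the call without each array in turn. Of these Sox4 rested on 1 of 6 probe sets, which spanned 0.12 to 0.35, and averaging them gave 0.22 and ended the call. Cdk5r2 kept it only without induced replicate 3 or uninduced replicate 3, Pacsin1 only without uninduced replicate 2, Syt11 only without uninduced replicate 1 and Gabra4 lost it without any of the 6. Of 9 tested genes of early neural tissue 0 passed and 3 had an unadjusted p under 0.05. The median of the 9 was 0.07, and 6 had a change above 0. Nes stood highest at 0.72 (limma adjusted p = 0.0540), Sox3 lowest at -0.27, and Neurog2 at 0.28 (unadjusted p = 0.058). The summed signal of the 6 tested early neural markers was 223 to 301 in induced and 168 to 191 in uninduced arrays, while Sox1 and Olig3 were too dim to be tested. The part of such cells in these rises was not tested. On bulk arrays a change in the share of a cell type and a change in RNA per cell cannot be told apart.

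Genes of Ras and FGF signalling were also called. Rasgrp3, an exchange factor that activates Ras, had 124, 155 and 183 in induced arrays, against 18.3, 15.6 and 16.2 in uninduced arrays, and its change of 1.92 ± 0.15 was the next largest after Prickle1 (limma adjusted p = 2.98e-08, both probe sets called). Rasgrp3 was the only one called of 15 tested genes of the cytoskeleton and Ras exchange list. Of 11 tested FGF feedback and target genes 3 rose, with a list median of 0.18. They were the receptor signalling inhibitors Spry4 (689 ± 113 in induced and 440.3 ± 47.4 in uninduced embryoid bodies, 0.60 ± 0.11) and Spry2 (1399 ± 47.4 in induced and 1049 ± 21.0 in uninduced, 0.40 ± 0.08) and the ERK phosphatase gene Dusp6 (2298 ± 71.8 in induced and 1629 ± 125 in uninduced, 0.49 ± 0.11). Without induced replicate 2 all 3 calls were lost (adjusted p = 0.0593, 0.0704 and 0.112), and for Dusp6 the call was kept only without uninduced replicate 2. Of the probe sets of Spry4 1 of 3 was called (0.08 to 0.60) and of those of Spry2 1 of 2 (0.15 to 0.40), and averaging probe sets gave 0.36 and 0.28 and ended both calls. Of 11 tested FGF ligands and receptors 0 passed and 2 had an unadjusted p under 0.05, Fgfr1 at 0.52 (adjusted p = 0.0751) and Fgf4 at -0.22 (adjusted p = 0.380).

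Of 12 tested Bmp targets and inhibitors 2 rose, both genes of the Id family, whose products bind E proteins and keep them from DNA. Id1 had 920.5, 978 and 794 in induced arrays, against 529, 543 and 499.8 in uninduced arrays (0.74 ± 0.10, limma adjusted p = 1.14e-04). Id4 had 249.7, 240.3 and 263.5 in induced arrays, against 129, 178 and 136 in uninduced arrays (0.67 ± 0.13, adjusted p = 0.00697; adjusted p = 0.0579 without uninduced replicate 1). Of 16 tested E proteins and other helix-loop-helix partners 0 passed and 2 had an unadjusted p under 0.05, Max at -0.35 and Hand1 at 0.40. Fstl1, which encodes a secreted Bmp-binding protein, was the only one called of 22 tested Bmp and Tgfb ligands, receptors and modulators. Its signals were 1059, 1007 and 1005 in induced arrays, against 535, 549 and 517 in uninduced arrays, a change of 0.90 ± 0.07 (adjusted p = 2.43e-08). In that list 7 genes had an unadjusted p under 0.05 and 13 a change above 0, with a median of 0.05. The lowest was Fst at -0.50, which did not pass. Foxh1, the Nodal pathway transcription factor gene, rose by 0.52 ± 0.08 and kept its call without each array in turn. Its other kept probe sets stood at 0.07 and 0.10 and were not called, and the call held in 15 of the 16 settings tried.

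Matrix, adhesion and cytoskeleton genes followed. Lama1, a laminin chain of early basement membranes, had 93.7, 94.0 and 97.5 in induced arrays, against 19.9, 18.1 and 13.9 in uninduced arrays (1.37 ± 0.11, limma adjusted p = 6.46e-08). It was the only one called of 20 tested basement membrane and integrin genes and of 12 tested endoderm genes, where it is also listed. Among the latter 1 had an unadjusted p under 0.05. The summed signal of 8 extraembryonic endoderm markers was 1029 to 1193 in induced and 930 to 1055 in uninduced arrays, and none was called.

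Of 18 tested genes of mesenchymal transition 1 rose, 17 had a change above 0 and 9 had an unadjusted p under 0.05, with a median of 0.22, against 50.8% above 0 and a median of 0.00 over all genes tested. The called gene was the mesenchymal cadherin Cdh11, with 235, 287 and 231 in induced arrays, against 142, 147 and 143 in uninduced arrays (0.68 ± 0.13, limma adjusted p = 0.00675); it was lost without induced replicate 2 (adjusted p = 0.0715), and 1 of its 2 probe sets was called, averaging to 0.42 with no call. Feeder fibroblast markers, which are mesenchymal too, had 9 of 11 changes above 0 on the same arrays and a median of 0.16, with 0 called, and their part in this shift was not tested. Pdgfra stood at 0.52, Zeb2 at 0.39, Snai1 at 0.28 and Snai2 at -0.26. Of 24 tested epithelial junction and keratin genes 3 rose, with a median of 0.04. Krt8, a keratin of simple epithelia, had 896, 778.5 and 766 in induced arrays, against 505.5, 536 and 527 in uninduced arrays (0.60 ± 0.10, adjusted p = 9.45e-04, all 3 probe sets called). The claudin gene Cldn4 (0.46) and the plakophilin gene Pkp2 (0.42) rose as well, at adjusted p = 0.0344 and 0.0154. Cldn4 kept its call only without uninduced replicate 3, and Pkp2 lost it without uninduced replicate 2 (adjusted p = 0.130), induced replicate 1 (0.114) or induced replicate 2 (0.0661), and with averaged probe sets (0.26). Among genes of the actin and LIM cytoskeleton, grouped after their values were seen, 7 rose and 2 fell, from 0.86 for Cotl1, a coactosin that binds actin, to -0.46 for Ajuba, a LIM protein of cell junctions.

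Vascular genes formed a smaller group of rises. The 6 called genes known from endothelium, grouped after their values were seen, were the growth factor gene Vegfc (0.71), the receptor gene Flt1 (0.73), the claudin gene Cldn5 (0.64), the hypoxia-regulated factor gene Epas1 (0.53), the exchange factor gene Fgd5 (0.53) and the Ets factor gene Etv2 (0.52), which starts the blood and endothelial programme. Vegfc had 166, 166 and 146 in induced arrays, against 87.4, 82.4 and 85.1 in uninduced arrays (limma adjusted p = 1.70e-04, 3 of 3 probe sets called). Etv2 had 268, 277 and 335 in induced arrays, against 210, 194 and 180 in uninduced arrays (adjusted p = 0.0273), and it was lost without every single array except induced replicate 1, to between 0.0518 and 0.163. Vegfc and Fgd5 kept their calls without each array in turn. Flt1 lost its call without induced replicate 1 or uninduced replicate 2 (adjusted p = 0.0600 and 0.0538), and Epas1 and Cldn5 lost theirs without 4 of the 6 arrays, at most to 0.0823 and 0.148. The other kept probe sets of Flt1 stood at 0.18, 0.20 and 0.23 and that of Epas1 at 0.27, none called. In the list for endothelium and blood 1 of 18 tested genes rose (Etv2), with a median of 0.08, and the summed signal of its 8 defining markers was 580 to 676 in induced and 487 to 513 in uninduced arrays.

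Growth control genes moved in both directions. Of 13 tested cell cycle inhibitors Cdkn1c rose and Gadd45a fell. Cdkn1c, the imprinted cyclin-dependent kinase inhibitor gene, had 560.5, 494 and 466.5 in induced arrays, against 278, 285.5 and 220.1 in uninduced arrays (0.88 ± 0.12, limma adjusted p = 1.70e-04). Gadd45a, a growth arrest and stress gene, had 389, 365 and 389 in induced arrays, against 571, 522 and 479 in uninduced arrays (-0.43 ± 0.09, adjusted p = 0.0114; lost without uninduced replicate 1 and without induced replicate 2, adjusted p = 0.0964 and 0.0826). Of 20 tested S phase genes, 16 of mitosis and 15 p53 targets 0 passed, and 4, 1 and 2 of them had an unadjusted p under 0.05. Ccne1 stood at -0.46 on a probe set of uneven arrays, Ccne2 at 0.25, Cenpe at 0.19, Bub1 at 0.17, Aen at -0.26 and Sesn1 at 0.24. Igfbp4, which binds insulin-like growth factors, rose by 0.80 ± 0.11, on 1 of its 6 probe sets, and averaging gave 0.35 and ended the call.

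Other large rises fell under no list. Pdzrn3, a ubiquitin ligase gene, had 438, 554 and 534 in induced arrays, against 188, 183 and 232 in uninduced arrays (1.21 ± 0.11). Prkch, which encodes a protein kinase C, had 116, 123 and 118.5 in induced arrays, against 48.9, 23.2 and 28.8 in uninduced arrays (1.22 ± 0.13). Phc2, a Polycomb subunit gene, had 430.04, 359.97 and 377 in induced arrays, against 167, 164 and 190 in uninduced arrays (1.04 ± 0.08). The groups did not overlap for any of them, and the highest limma adjusted p of the 3 was 3.18e-06. Prcd, known from photoreceptor discs, changed by 1.24 ± 0.11, the adhesion gene Ceacam10 by 1.00 ± 0.12, the sorting nexin gene Snx24 by 1.00 ± 0.10 and the orphan receptor gene Gprc5c by 0.89 ± 0.12. Every gene of this paragraph kept its call without each array in turn. F2r, the thrombin receptor gene, rose by 0.73 ± 0.08 at a high signal, 3365 ± 93.9 in induced and 2022 ± 104 in uninduced embryoid bodies.

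**Figure D3:**
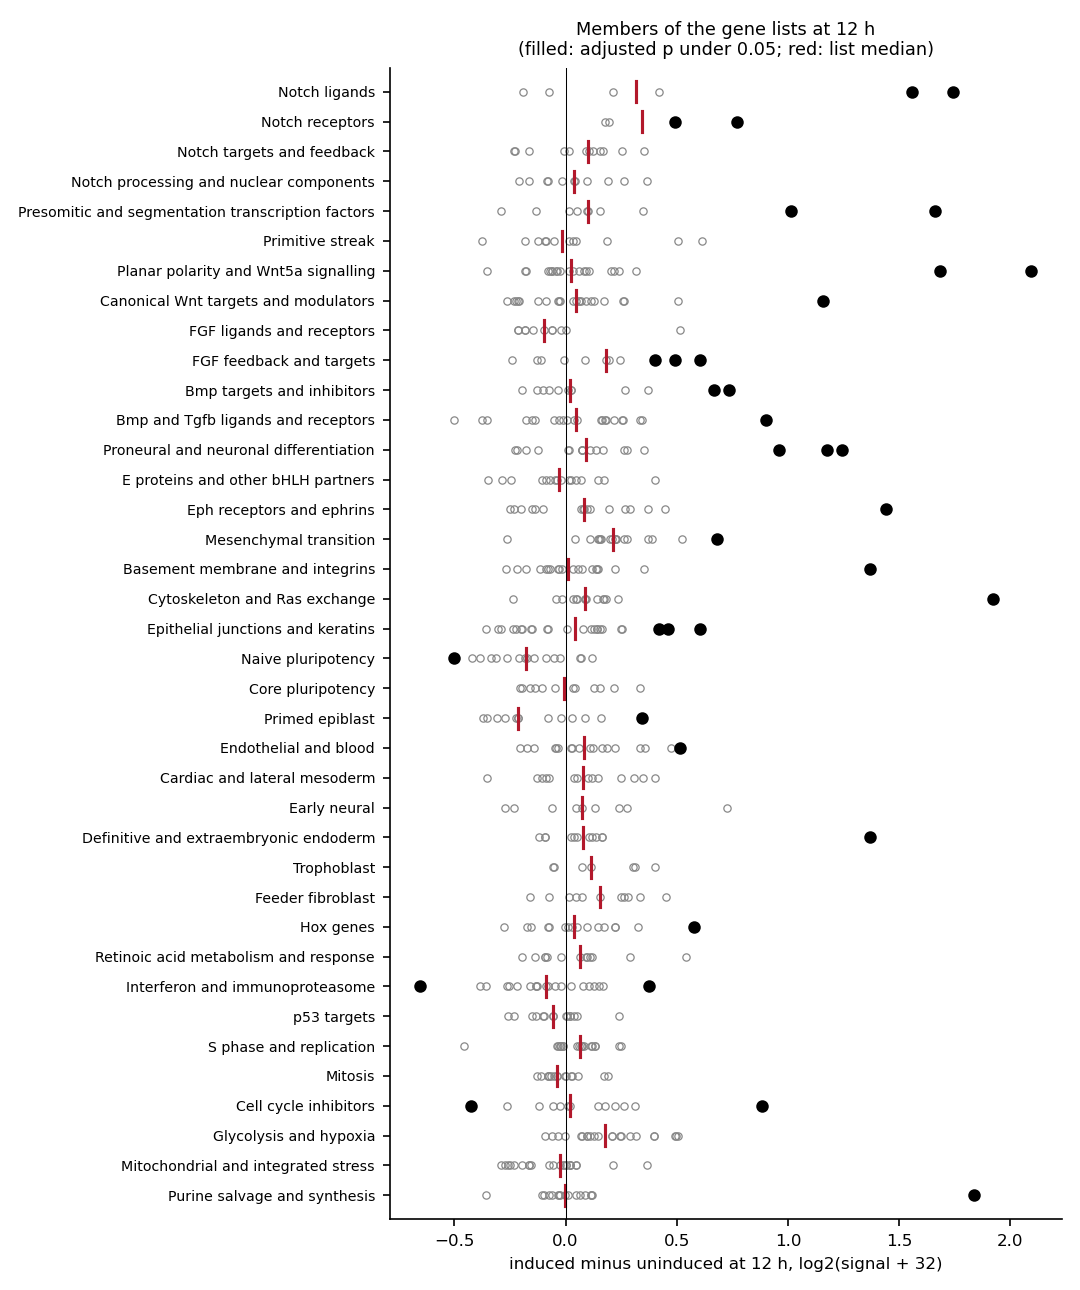
Change at 12 h of every tested member of 38 gene lists: each row is a list, the x axis is induced minus uninduced on the scale log2(signal + 32), filled circles passed at an adjusted p under 0.05, open circles did not, and red bars mark the list's median. List medians lie between -0.21 and 0.34, and no list holds more than 3 called members in 1 direction.

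The lists for other fates and states held few called genes by count. In lists this short 1 call is already a larger share than the 1.08% called over all genes. Of 16 tested naive pluripotency genes 1 fell and 3 had a change above 0, with a median of -0.18. That gene was Nr5a2, a nuclear receptor of the naive state, with 130, 140.3 and 166 in induced arrays, against 219, 227 and 210.3 in uninduced arrays (-0.50 ± 0.12, limma adjusted p = 0.0455); it kept its call only without induced replicate 3, and without each other array its adjusted p lay between 0.0832 and 0.207. Averaging its 4 probe sets gave -0.35 and ended the call. Klf2 stood at -0.38, Esrrb at -0.33, Nanog at -0.05 and Klf4 at 0.12. Of 12 tested core pluripotency genes 0 passed and 2 had an unadjusted p under 0.05, Tdgf1 at 0.34 and Sall4 at 0.22, and Pou5f1 stood at 0.04. The summed signal of the 8 pluripotency markers was 19087 to 19913 in induced and 19242 to 19504 in uninduced arrays, a sum carried by a few genes of high signal such as Sox2. Among 13 tested primed epiblast genes Sox4 was the only one called and the median was -0.21.

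Of 16 tested Hox genes Hoxb3 rose, with 42.3, 41.2 and 50.4 in induced arrays, against 16.2, 25.3 and 16.9 in uninduced arrays (0.58 ± 0.12, limma adjusted p = 0.0209); it kept its call only without uninduced replicate 2, and its other kept probe set stood at -0.18, so that averaging gave 0.20 and ended the call. Of 14 tested genes of cardiac and lateral mesoderm 0 passed, 3 had an unadjusted p under 0.05 and 9 had a change above 0. Their median was 0.08, from Bmp4 at -0.35 (limma unadjusted p = 0.145, arrays overlapping) to Hand1 at 0.40 (unadjusted p = 0.018). Of 13 tested genes of retinoic acid metabolism and response 0 passed and 2 had an unadjusted p under 0.05, Cyp26a1 at 0.54 (adjusted p = 0.119) and Crabp2 at 0.29. In the interferon and immunoproteasome list of 21 tested genes the surface protein gene Ifitm1 rose (0.37 ± 0.08; kept only without uninduced replicate 3) and Psmb8 fell, and 6 had an unadjusted p under 0.05. Of 22 tested glycolysis and hypoxia genes 0 passed, 18 had a change above 0 and 5 had an unadjusted p under 0.05, with a median of 0.18 and Ndrg1 and Bnip3 at 0.51 and 0.49, on arrays that overlapped. Of 23 tested genes of mitochondrial and integrated stress 0 passed and 5 had an unadjusted p under 0.05, with Vldlr at 0.37 and Trib3 at -0.29.

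Markers of cells that the cultures could hold were read on the same arrays. Of 11 tested feeder fibroblast markers 0 passed, 9 had a change above 0 with a median of 0.16, and 5 had an unadjusted p under 0.05 (Col1a2 at 0.45 and Thy1 at 0.34), and their summed signal was 1074 to 1322 in induced and 993 to 1131 in uninduced arrays. For 7 trophoblast markers, of which 0 passed and 2 had an unadjusted p under 0.05 (Hand1, and Esx1 at 0.31), it was 272 to 354 in induced and 243 to 286 in uninduced arrays. For 7 cardiac and lateral mesoderm markers it was 185 to 207 in induced and 190 to 215 in uninduced arrays. Such sums rest on few genes. Etv2, at a mean of 293 in induced and 195 in uninduced embryoid bodies, made up most of the gap in the vascular sum, and Nes, at 104 in induced (149 on replicate 1) and 49.3 in uninduced, most of that in the early neural sum.

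Falls were fewer and smaller. Kbtbd11, a BTB and kelch protein gene, fell most: it had 184, 174.5 and 191 in induced arrays, against 363, 413 and 318 in uninduced arrays, a change of -0.88 ± 0.12 (0.54-fold, limma adjusted p = 9.86e-05). Ajuba had 962, 963 and 1038 in induced arrays, against 1409, 1382 and 1309 in uninduced arrays (-0.46 ± 0.07, adjusted p = 7.20e-04). Ddah1, which breaks down an inhibitor of nitric oxide synthesis, had 110.5, 88.2 and 86.2 in induced arrays, against 148, 164 and 165 in uninduced arrays (-0.59 ± 0.11, adjusted p = 0.00527), on 1 of its 4 probe sets, which spanned -0.59 to 0.28; averaging them gave -0.17 and ended the call. These 3 were the only falls called without each array in turn.

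The immunoproteasome subunit gene Psmb8 had 45.2, 28.4 and 33.0 in induced arrays, against 79.3, 53.1 and 92.8 in uninduced arrays (-0.65 ± 0.14, limma adjusted p = 0.0230). The fatty acid transporter gene Slc27a2 had 416, 389 and 453 in induced arrays, against 713, 634 and 640.4 in uninduced arrays (-0.62 ± 0.14, adjusted p = 0.0230). In both the groups were apart, by less for Psmb8, whose other probe set stood at 0.10, and averaging the pair gave -0.27 and ended the call. The autophagy receptor gene Calcoco2 (-0.62), the transporter gene Slc35d3 (-0.60), the secreted factor gene Tafa5 (-0.52), the nephrin gene Nphs1 (-0.52), the homeodomain-only gene Hopx (-0.51), the adaptor gene Apba2 (-0.51), Zfp428 (-0.51) and Sertad4 (-0.50) also fell, at adjusted p between 0.00675 for Hopx and 0.0494 for Apba2. The other probe set of Tafa5 stood at 0.06, and averaging gave -0.23 and ended the call. All of these 10 calls were lost without induced replicate 2. Hopx lost its call in that case alone (adjusted p = 0.0725), Calcoco2 also without uninduced replicate 2 (0.0988), and the other 8 without at least 4 of the 6 arrays, reaching between 0.0860 (Zfp428) and 0.194 (Apba2).

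**Figure D4:**
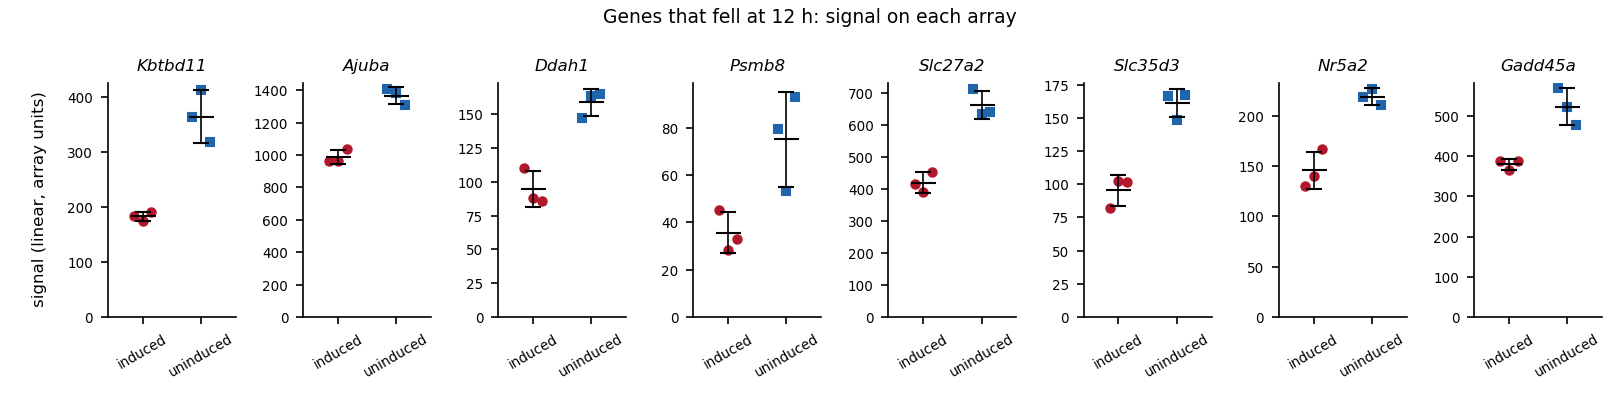
Signal on each array for 8 genes that fell at 12 h: red circles are the 3 induced arrays, blue squares the 3 uninduced arrays, and bars give the mean and SD on linear axes from 0. In every panel the highest induced array lies below the lowest uninduced one, most narrowly for Psmb8.

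Fewer arrays gave fewer calls. Without 1 array of the 12 h groups in turn, between 74 (without induced replicate 2) and 134 (without uninduced replicate 3) genes passed, and the count moved by over 1.5 times without induced replicate 1 (97), induced replicate 2 (74), induced replicate 3 (100), uninduced replicate 1 (94) or uninduced replicate 2 (93). The calls of 55 of the genes that rose and of 3 of those that fell were kept without each array in turn. Across all 16 settings tried, 44 rises and 2 falls (Ajuba and Kbtbd11) remained called; these rises included Msgn1, Hprt, Dll1, Dll3, Notch1, Prickle1, Wnt5a, Dact1, Epha4, Cited1, Neurod1, Insm1, Hes6, Lama1, Id1 and Cdkn1c. No called gene changed sign in any of the 16.

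The arrays of 24 h and 48 h, which the 12 h comparison did not use, show what the same genes did later. Of the 128 genes that rose at 12 h, 79 were called higher at 24 h, 0 lower, and 123 had a change above 0, beside 2.91% called higher and 0.995% called lower over all genes. At 48 h 50 were called higher and 9 lower, beside 6.86% higher and 5.56% lower over all genes. The median change of the 128 was 0.58 at 12 h, 0.46 at 24 h and 0.20 at 48 h, of which the first is raised by the choice of the genes at 12 h. At all 3 times 46 were called higher, among them Rasgrp3, Hprt, Dll3, Dll1, Wnt5a, Cited1, Epha4, Lama1, Notch1 and Id1. Another 33 were called higher at 12 h and 24 h but not at 48 h, among them Prickle1, Dact1 and Hes6, and 4 at 12 h and 48 h, among them Vegfc and Cdkn1c. Prickle1 was among those of these 33 that were called lower at 48 h (-0.34, limma adjusted p = 0.0169). At 12 h alone 38 were called, among them Neurod1, Insm1, Id4, Spry4, Dusp6 and Sox4. The remaining 7 were not called at 24 h and were called lower at 48 h, among them Spry2 and the synaptotagmin gene Syt11.

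Of the 26 genes that fell at 12 h, 11 were called lower at 24 h and 9 at 48 h, and 1, the interferon-induced GTPase gene Irgm1, was called higher at 48 h. Those lower at all 3 times were Gadd45a, Ajuba, Slc27a2, Slc35d3 and the glutaredoxin gene Glrx. In uninduced embryoid bodies between 24 h and 48 h, 51 of the 128 genes that rose with induction were called higher and 21 lower at the later time, beside 12.8% higher and 11.7% lower over all genes. Of the 26 that fell with induction, 15 were called lower and 2 higher between these uninduced times.

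The difference of the induction effect between times was tested for every gene. These differences use the 12 h arrays on which the genes were chosen, so a smaller effect later is partly a result of that choice. From 12 h to 24 h the effect was called higher for 0.0841% and lower for 0.021% of all genes, and for 2 genes each of the 128 that rose. Greb1l, known for its part in kidney development, and Cdh11 had larger effects at 24 h, by 1.28 ± 0.23 and 0.98 ± 0.18, both with no call when probe sets were averaged, and Neurod1 and Prickle1 smaller ones, by -1.05 ± 0.18 and -0.77 ± 0.13, the call of Prickle1 also ending with averaged probe sets. Neurod1 changed by 1.24 at 12 h, 0.20 at 24 h and 0.16 at 48 h, while in uninduced embryoid bodies it fell by 1.48 between 24 h and 48 h (limma adjusted p = 2.21e-08).

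From 12 h to 48 h the effect was called higher for 2.84% and lower for 2.63% of all genes, and higher for 10 and lower for 45 of the 128. Prickle1 moved most: its change was 2.09 at 12 h, 1.32 at 24 h and -0.34 at 48 h, a difference of -2.43 ± 0.13. Pdzrn3, Wfdc2, Insm1, Hes6 and Prkch had effects smaller by between 1.12 and 1.42 at 48 h, at changes between -0.36 and 0.11. Effects larger at 48 h were those of Hprt (2.94 at 48 h), Igfbp4 (1.90), Greb1l (1.86), Id1 (1.65), Vegfc (1.63) and Hoxb3 (1.59). The 10 neuronal genes, all called at 12 h, were called higher for 3 at 24 h and 1 at 48 h, whereas of the 6 vascular genes 4 were called higher at 24 h and 5 at 48 h; the difference between these groups was not tested.

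**Figure D5:**
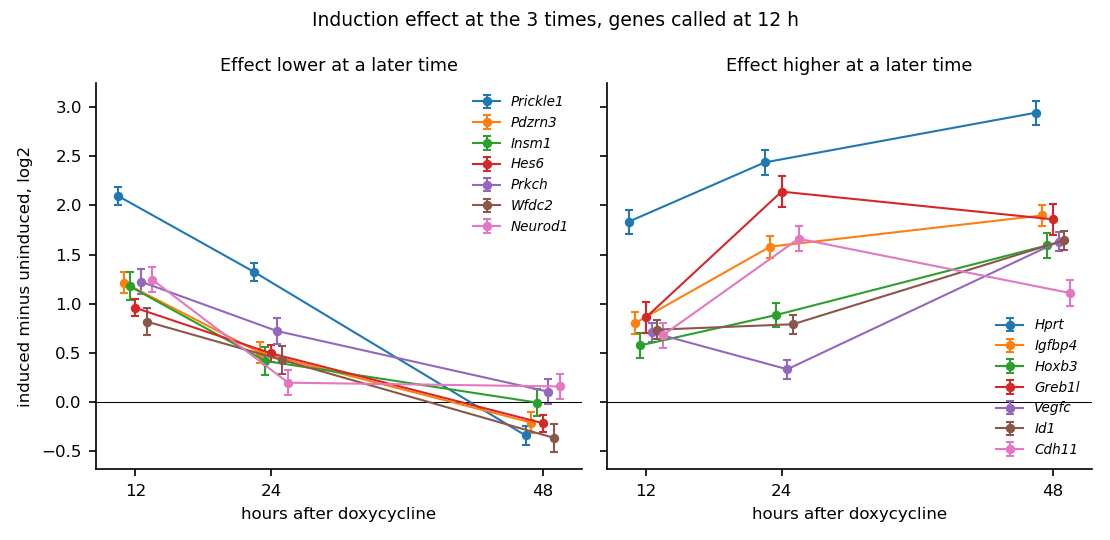
Induction effect at 12 h, 24 h and 48 h for genes called at 12 h whose effect differed at a later time: the x axis is hours after doxycycline (points are shifted sideways so that they do not cover each other), the y axis induced minus uninduced on the log2 scale, and bars are the SE. On the left, effects between 0.82 and 2.09 at 12 h lie between -0.36 and 0.16 at 48 h; on the right, Hprt reaches 2.94 at 48 h.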

How the data were processed

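Total RNA of embryoid bodies (100 ng a sample, RNA integrity numbers above 9) was biotin-labelled with an Affymetrix 3' IVT Express kit, per the labels' protocols. The deposited intensity values, 1 a probe set (45101) and array, came from the GCOS software, per the submitters' processing notes. Which signal algorithm and scaling target the authors chose is not given in the sources used here. Every array had a 2% trimmed mean of 150, so the deposited values were already scaled per array, and no further normalization was applied.

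Values were turned into log2(signal + 32). After removal of 64 control probe sets, 34945 probe sets had 1 gene in the platform annotation (34741 matched by Entrez identifier), 932 had several and 9160 none. Probe sets below the 40th percentile (a signal of 13.3) in every group mean were left out. Where a gene kept several probe sets, as 6674 of the 14273 tested genes did, the one with the highest average signal represented it. Of the 154 called genes, 80 had several kept probe sets; in 21 of these at least 2 passed in the same direction and in 0 any passed in the opposite one. The probe set of 27 called genes did not pass when all probe sets were tested together.

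A mean per group was fitted to all 18 arrays with limma 3.58.1 in R 4.3.3 (12 residual degrees of freedom, intensity trend). The 2-sided p-values were adjusted by Benjamini-Hochberg over the 14273 genes, and those with adjusted values under 0.05 are termed called. The steps were tested on simulated data.

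Members, gene lists and tests were chosen with earlier results of these data known. The 25 largest rises and 12 largest falls whose groups did not overlap were named, then up to 4 called members of each of 38 lists (or, with none called, up to 2 as values), the 6 largest differences of effect in each direction, and the tested neighbours of Hprt; other called genes were named beside genes of like role. Of 613 listed genes 541 were tested, 45 were too dim and 27 had no probe set of a single gene. Promoter windows are RefSeq's for GRCm38.p6; those of chromosome 18 were not used. No pairing by replicate number was seen over all genes. Deviations from the group mean of same-numbered 12 h arrays correlated at 0.010, 0.072 and -0.067, those of other arrays at -0.114 to 0.112. A shared batch that acts on some genes was not tested. Alternatives tried were quantile normalization, other filters and offsets, averaging of probe sets, other moderation, the 12 h arrays alone, a replicate block and leaving out each array. Python 3.11.15 with matplotlib 3.10.9 made the figures.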

Additional observations from a re-analysis of the deposited data

Results flagged for a closer look

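The genes here had an induction effect at 12 h that differed from the effect at a later time in a test of the difference itself (limma, adjusted over all genes tested). They were picked among the genes called at 12 h, and the differences share the 12 h arrays, so effects that shrink later are favoured by the choice. From 12 h to 24 h the effect of Greb1l was larger by 1.28 and that of Cdh11 by 0.98188, and the effects of Neurod1 and Prickle1 differed by -1.047 and -0.77104. From 12 h to 48 h the effect was larger by 1.1084 for Hprt, 1.0974 for Igfbp4, 1.0181 for Hoxb3, 0.99832 for Greb1l, 0.92377 for Vegfc and 0.90898 for Id1. Over the same span it differed by -2.434 for Prickle1, -1.421 for Pdzrn3, -1.1824 for Wfdc2, -1.1821 for Insm1, -1.1721 for Hes6 and -1.1187 for Prkch, all on the log2 scale. The 24 h differences of Greb1l, Cdh11 and Neurod1 lost their calls without several single arrays, at most to adjusted p = 0.0656, 0.0929 and 0.0644. No array group exceeded 3 samples, so no group was large enough to be tested for an outlying sample.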

How the results depend on the processing

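The count of genes called at 12 h, 154 as reported, was between 115 (no filter on dim probe sets) and 205 (replicate block) in the settings that kept every array, and 72 called genes were kept in all of these. Genes lower, 26 as reported, numbered 45 with the 12 h arrays alone and 49 with the replicate block, against 152 and 156 higher. The block takes up whatever arrays of the same number share, and whether they shared a batch was not tested. Leaving out each 12 h array in turn gave 74 to 134 called, 67 to 115 higher and 7 to 19 lower. For the 24 h minus 12 h difference, 15 genes as reported, the count was 9 when probe sets were averaged, 24 with the replicate block and 9 to 26 with arrays left out (26 without induced 24 h replicate 1, 23 without uninduced 24 h replicate 3, 9 without induced 24 h replicate 2); for 48 h minus 12 h, 781 as reported, it was 601 to 824 with arrays left out and 916 with the replicate block. The sign of 4 uncalled neighbours of Hprt changed. With single arrays left out Gpc3 ran from -0.07941 to 0.0006177, Phf6 from -0.1509 to 0.03422, 1700080O16Rik from -0.2247 to 0.01503 and Ccdc160 from -0.2046 to 0.001542, and Phf6 stood at 0.04034 with averaged probe sets. When probe sets were averaged 117 genes were called, and only 101 of the 154 were among them. Of the genes named by size, list, difference of effect or place beside Hprt, these lost their calls: Nr5a2 (-0.35), Apba2 (-0.51), Ddah1 (-0.17), Psmb8 (-0.27), Tafa5 (-0.23), Notch4 (0.28), Cdh11 (0.42), Greb1l (0.48), Igfbp4 (0.35), Hoxb3 (0.20), Sox4 (0.22), Spry2 (0.28), Spry4 (0.36) and Pkp2 (0.26). Other called genes lost theirs too, and the cause was not tested. The signals of low genes and the 3 arrays a group limit what could be called.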
